A study of Mus musculus with 12 samples.

Results

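The genes described here encode the subunits of the 5 oxidative phosphorylation complexes in mouse liver. They were the genes whose mouse symbols begin with the standard subunit stems (*Nduf* followed by a, b, c, s or v and a number, *Sdha* to *Sdhd*, *Uqcr*, *Cox4* to *Cox8*, *Atp5*, and the protein genes *mt-Nd*, *mt-Co*, *mt-Cytb* and *mt-Atp*), without symbols containing -ps, which mark pseudogenes. Of the 16346 genes in the table of values, 95 met this rule, 82 in the nucleus and 13 on the mitochondrial genome, which are all of the proteins that this genome encodes. Not every pseudogene symbol carries -ps. *Ndufs6b* and another processed pseudogene, which is among the genes tested, are therefore counted as nuclear members of complex I. Liver RNA was sequenced from 12-week-old C57BL6J mice in 6 groups of 2, and each library came from one mouse. Control mice were *Med13* fl/fl, and MED13-LKO mice carried the same floxed alleles together with *Alb*-Cre, which is active in hepatocytes. Mice of each genotype were fasted overnight for 16 h, or were refed for 4 h with normal chow and drinking water that contained 30% sucrose or 30% fructose. Other liver cells keep *Med13* in this model, so each liver holds both recombined and unrecombined cells.

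Complex I takes electrons from NADH, complex II from succinate, and both pass them through ubiquinone to complex III and then, through cytochrome c, to complex IV, which reduces oxygen. Complexes I, III and IV pump protons, and complex V, the ATP synthase, uses the gradient to make ATP. Complex II is built only from nuclear genes, whereas the other complexes combine nuclear subunits with proteins that mitochondria make from their own genome, which is transcribed by a separate polymerase into long transcripts from both strands. RNA polymerase II, with which Mediator works, therefore transcribes only the nuclear genes. Hepatocytes are rich in mitochondria, and in the fasted state they oxidize fatty acids to supply gluconeogenesis.

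*Med13* itself was not lower in the livers labelled MED13-LKO. Its normalized counts were between 578 and 796 in the 6 control libraries and between 646 and 1055 in the 6 livers labelled MED13-LKO (log2 fold change 0.22 ± 0.11, standard error, adjusted p = 0.201). Since the table sums over exons, loss of single exons would not show, so each direction given here is that of the libraries as labelled. The values are normalized counts, that is, estimated counts that the authors normalized between libraries. A log2 fold change is a difference of log2(normalized count + 1) in one limma fit of all 12 libraries, which understates the changes of low genes. Each is given ± its standard error. A gene was called at an adjusted p under 0.05 (Benjamini-Hochberg over the 12366 genes whose mean reached 10). Steps between low values of genes with a single transcript placed the depth at about 16110588 to 24207590 reads per library. Over all genes only 37.6% to 54.0% of the low values in a library fell on these steps, so the depth is a rough estimate. The sums of the normalized counts were lower in the livers labelled MED13-LKO (17309215 to 18738563) than in the controls (21062211 to 24152885). The summed level of 5 hepatocyte markers was 2150617 to 2885789 in controls and 1619654 to 2007771 in the livers labelled MED13-LKO. Most of this sum is *Alb*, at 1780007 to 2411616 and 1376902 to 1683239. Averaged over the diets, *Alb*, *Ttr*, *Apoa1* and *Cps1* were called lower, and *Tat* was not called. The sums of 4 sinusoidal endothelial markers were 2750 to 3140 and 3107 to 4232, those of 4 Kupffer cell markers 1640 to 2305 and 1971 to 2530, and those of 4 stellate cell markers 4818 to 6000 and 4465 to 5249. Sums of 3 red blood cell markers were 6056 to 9651 and 4070 to 7412. Those of 2 cholangiocyte markers were 30.5 to 68.5 and 16.6 to 43.3. Single markers of a list differed. Called higher were *Marco* of the Kupffer cell and *Stab2*, *Kdr* and *Clec4g* of the endothelial markers. Called lower were *Dcn* of the stellate cell and *Hba-a1* and *Hbb-bs* of the red blood cell markers. The others in these lists were not called. Adipocyte and skeletal muscle markers were near 0, with sums of at most 44.1. In bulk RNA, fewer cells of a type and less RNA per cell cannot be told apart, and the part of these markers in the results was not tested.

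The 13 mitochondria-encoded genes were by far the more abundant transcripts. Per kilobase of the longest transcript, their mean levels ran from 47725 normalized counts for *mt-Nd3* to 401762 for *mt-Co1*, with a median of 139277. The 82 nuclear genes ran from 2.24 for *Ndufa4* to 12559 for *Atp5b*, the catalytic beta subunit of the ATP synthase, with a median of 1538. All 13 mitochondria-encoded genes thus ranked above each nuclear one. After *Atp5b*, the highest nuclear levels per kilobase were those of *Cox4i1* (7230), *Atp5g3* (6274), *Cox8a* (5597) and *Cox6a1* (5564). *Cox4i1*, *Cox8a* and *Cox6a1* encode the common isoforms of 3 subunits of complex IV, and *Atp5g3* encodes the ring subunit through which protons cross complex V.

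Of the 95 genes, 91 passed the filter on low values, 78 nuclear and 13 mitochondria-encoded. The 4 that did not were *Ndufa4* (0 to 6.92 normalized counts), *Ndufa4l2* (2.96 to 14.6), *Cox8b* (2.39 to 12.2) and *Ndufs6b* (0 to 3.96), which is annotated as a processed pseudogene. *Ndufa4* and *Ndufa4l2*, named for complex I, encode alternative subunits of complex IV and are counted with it. *Ndufa4* and *Cox5b* (0 to 31.3) belong to subunits that complex IV uses in most tissues, and *Ndufa9* (0 to 309) encodes an accessory subunit of complex I that cells generally make. A value near 0 from estimated transcript counts can be a failed estimate, so the values of these 3 are uncertain. *Ndufa9* was listed at 303 and 241 in fasted, 0 and 309 in sucrose-fed and 80.5 and 24.7 in fructose-fed controls, and the mice of each fed pair were far apart.

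As a share of all normalized counts in a library, the 13 mitochondria-encoded genes held 9.03% to 10.2% in the controls and 9.68% to 11.0% in the livers labelled MED13-LKO, and the groups overlapped. The difference in mean share was 0.37 percentage points on this total, and it turned to -1.06 when the 100 other most abundant genes were left out of the total. The 82 nuclear genes held 0.944% to 0.996% in the controls and 1.12% to 1.15% in the livers labelled MED13-LKO, which did not overlap. Their summed normalized counts did overlap, at 201487 to 229112 and 198029 to 211268. The totals over all genes, by which the share is divided, were lower in the livers labelled MED13-LKO. The nuclear share was not computed without the most abundant genes. Mitochondria-encoded and nuclear subunits can also be set against each other within a library. A single factor per library does not alter the ratio of their sums, whereas factors per gene, which were not examined here, would. This ratio was 10.5 and 10.5 in fasted, 9.98 and 10.6 in sucrose-fed and 9.93 and 9.44 in fructose-fed controls. In the livers labelled MED13-LKO it was 8.71 and 8.64 in fasted, 8.76 and 9.60 in sucrose-fed and 9.08 and 8.63 in fructose-fed mice. Both livers labelled MED13-LKO lay below both controls within each diet, while over the 3 diets the second sucrose-fed liver labelled MED13-LKO was above the lowest control. The mean ratio was 10.2 ± 0.456 (SD, n = 6) and 8.90 ± 0.378 (SD, n = 6), and no test was run on this score over the members.

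**Figure D1:**
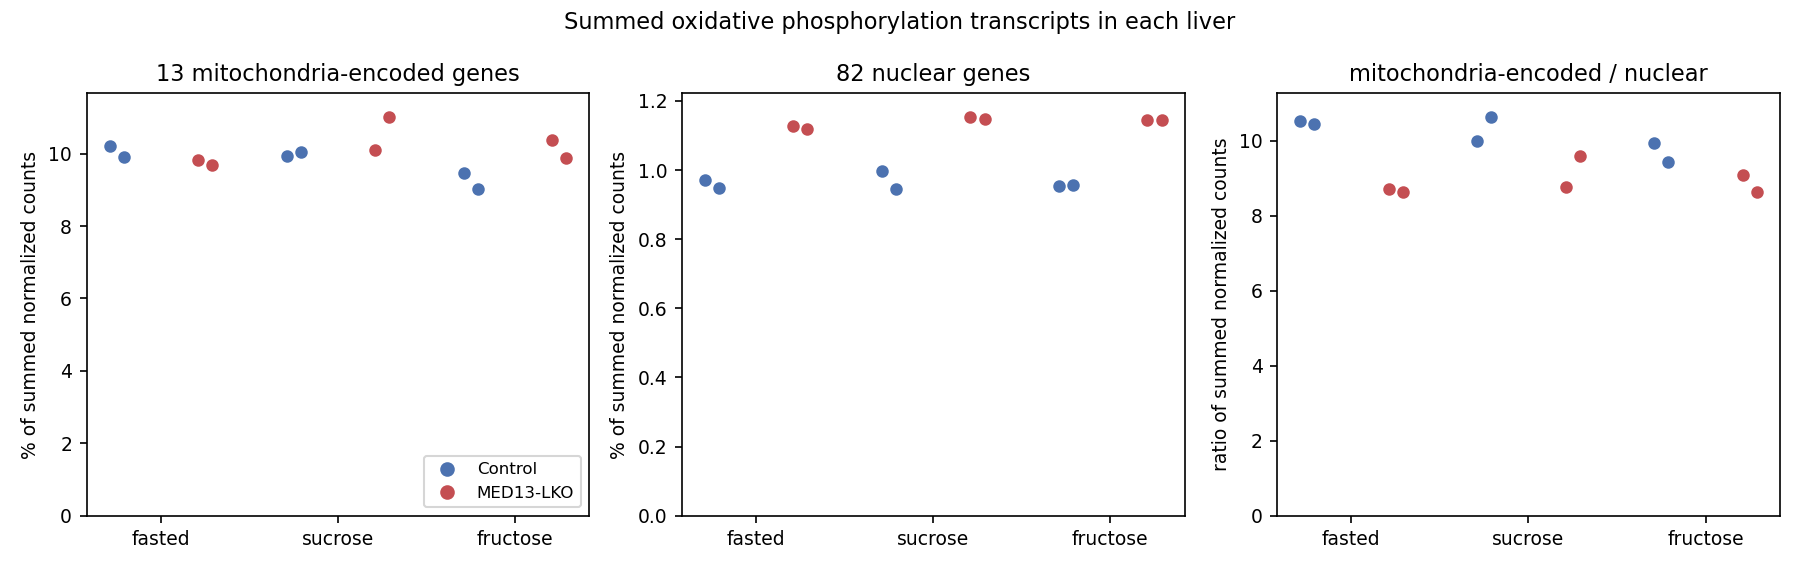
Each point is 1 liver, in blue for controls and red for livers labelled MED13-LKO, by diet on the horizontal axis. The left and middle panels give the mitochondria-encoded and the nuclear subunit genes as a percentage of the summed normalized counts, and the right panel gives the ratio of their sums, which was 9.44 to 10.6 in controls and 8.63 to 9.60 in livers labelled MED13-LKO.

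The comparison of genotypes asks whether loss of the Mediator kinase module in hepatocytes alters these transcripts. Averaged over the 3 diets, 36 of the 91 members were called, 34 lower and 2 higher in the livers labelled MED13-LKO, one of which, *Cox6b2*, passed the filter only through those livers. Over all genes, 25.3% were called, with 13.2% lower and 12.1% higher. Members are abundant genes, and of the 2376 other genes with a mean of at least 1000 normalized counts, 846 (35.6%) were called lower, with a median log2 fold change of -0.10. The 34 of 91 members called lower (37.4%) stand near that share. On the deposited scale 23 of the 78 nuclear members were called lower (median log2 fold change -0.08) and 11 of the 13 mitochondria-encoded ones (median -0.31), against a median of 0.01 over all genes. When libraries were instead scaled to equal totals over nuclear genes, the all-gene median moved up by 0.32 and both directions turned, with medians of 0.24 for the nuclear and 0.01 for the mitochondria-encoded members. Mitochondria-encoded members stayed lowest, with nuclear members next and all genes above them at a shifted median of 0.33. A single factor per library moves every gene by nearly the same amount, so this order could not change. With equal totals, 60 members were called higher and 1 lower, while 58.4% of all genes were called higher.

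**Figure D2:**
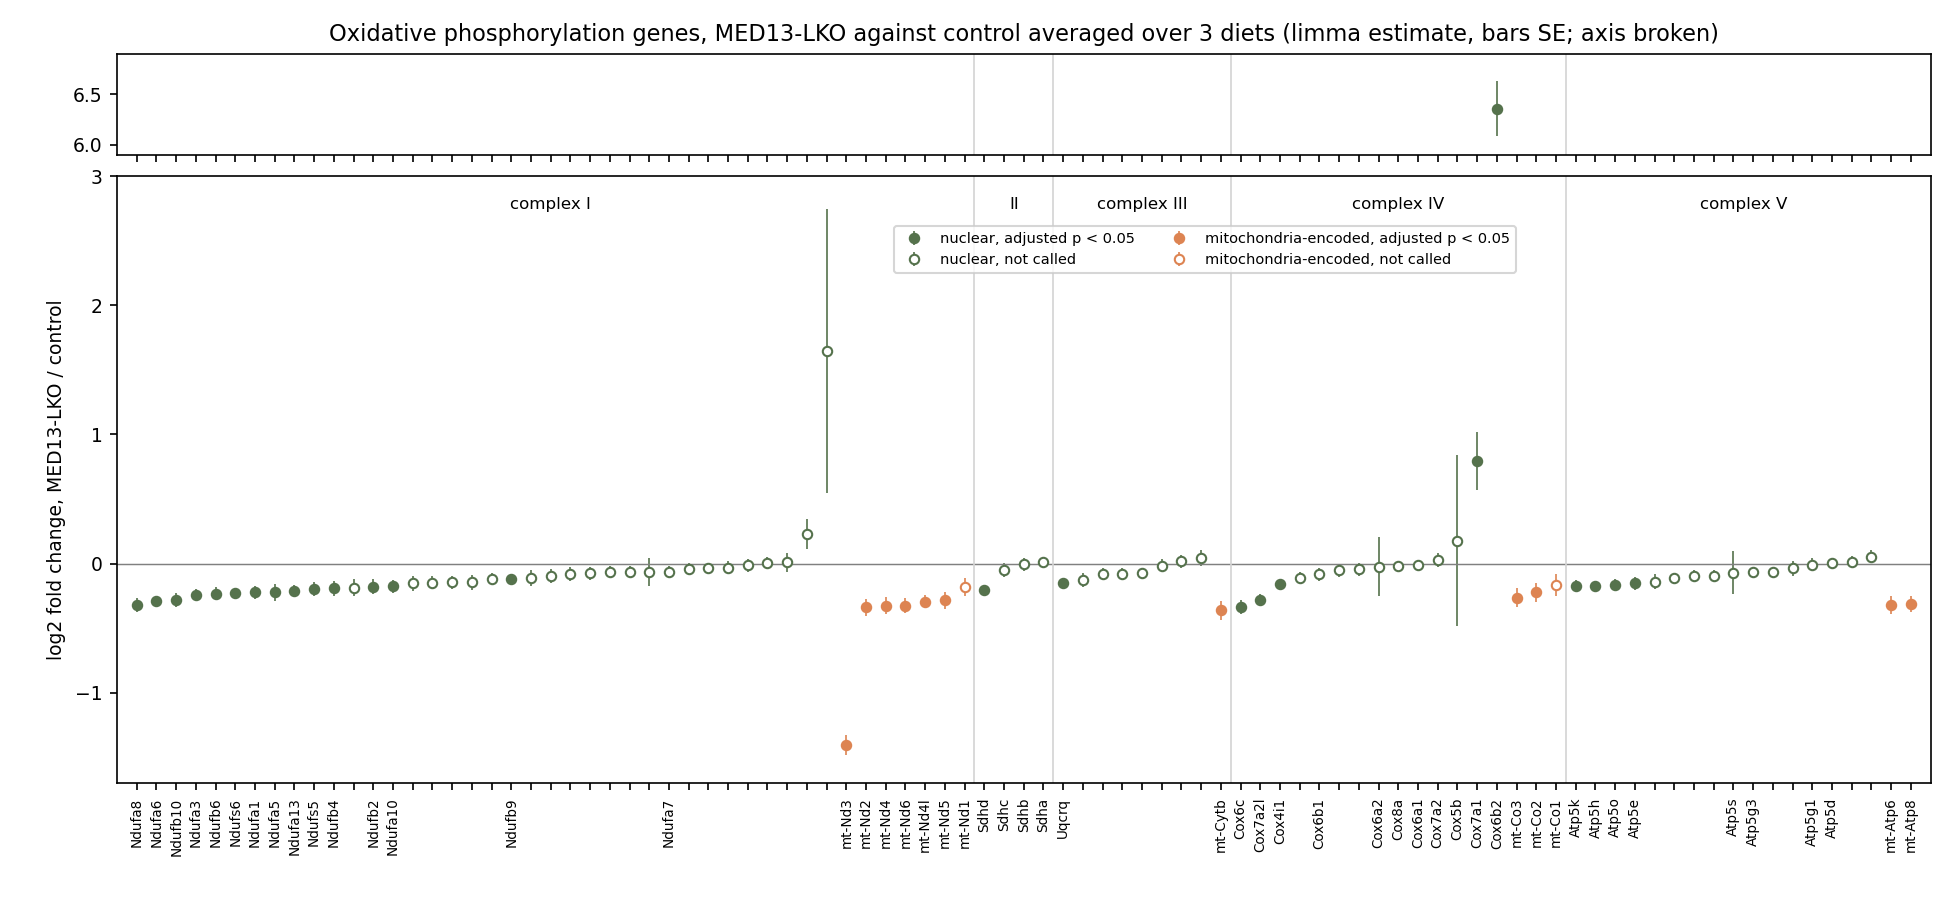
Each point is the limma log2 fold change of 1 of the 91 tested genes, livers labelled MED13-LKO against controls averaged over 3 diets, with its standard error as a bar, ordered within complexes I to V and by genome (green nuclear, orange mitochondria-encoded, filled where called), and some genes are left unlabelled. The axis is broken for *Cox6b2* at 6.36, and *mt-Nd3* at -1.41 lies apart from the other mitochondria-encoded genes, which are near -0.3 on the deposited scale and near 0 with equal totals over nuclear genes.

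By complex, counts are given on the deposited scale, and of the lower calls only that of *mt-Nd3* remained with equal totals over nuclear genes. In complex I, 14 of 36 nuclear members (median -0.13) and 6 of 7 mitochondria-encoded ones (median -0.33) were called lower. In complex II, 1 of 4 was called lower, *Sdhd*, a membrane anchor (-0.21 ± 0.05). In complex III, 1 of 8 nuclear members, *Uqcrq* (-0.15 ± 0.04), was called lower, as was *mt-Cytb*, its one mitochondria-encoded gene. In complex IV, 3 of 14 nuclear members were called lower and 2 higher, and *mt-Co2* and *mt-Co3* were called lower. In complex V, 4 of 16 nuclear members (*Atp5e*, *Atp5h*, *Atp5k* and *Atp5o*, from -0.17 to -0.15) and both mitochondria-encoded genes were called lower. Among nuclear core subunits of complex I, which form its electron-transfer arm, *Ndufv2* (-0.14 ± 0.06), *Ndufv1* (-0.12 ± 0.05), *Ndufs1* (-0.03 ± 0.05), *Ndufs7* (-0.01 ± 0.05), *Ndufs3* (0.00 ± 0.05) and *Ndufs8* (0.23 ± 0.12) were not called. *Atp5b*, the catalytic subunit of complex V, was not called either (0.05 ± 0.05), nor was *Atp5a1* of that complex (0.01 ± 0.04). *Sdha* (0.01 ± 0.04) and *Sdhb* (-0.00 ± 0.05) of complex II were also not called. These subunits were picked out after values were seen.

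*mt-Nd3*, a core membrane subunit of complex I, had the largest difference of any mitochondria-encoded gene. It lies at chrM:9459-9806 on the plus strand of GRCm38 and has no introns. Its normalized counts were 26772 and 26780 in fasted, 21872 and 23578 in sucrose-fed and 26070 and 19796 in fructose-fed controls. In the livers labelled MED13-LKO they were 8652 and 8756 in fasted, 8517 and 10489 in sucrose-fed and 8827 and 9192 in fructose-fed mice. Each of the latter was below each control. The averaged log2 fold change was -1.41 ± 0.08 (adjusted p = 1.84e-06), and it was -1.62 fasted, -1.26 with sucrose and -1.33 with fructose, each of them called. *mt-Nd3* held 1.03% to 1.23% of the mitochondria-encoded sum in controls and 0.470% to 0.538% in the livers labelled MED13-LKO. Set against *mt-Nd4l*, the next protein gene along the same strand, *mt-Nd3* gave a ratio of 0.72 to 0.88 in controls and 0.35 to 0.39 in the livers labelled MED13-LKO, again without overlap. A single factor per library does not alter this ratio.

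*mt-Nd3* has a near copy in the nuclear genome, the unprocessed pseudogene *Gm28438* on the minus strand at chr1:24612775-24613119 of GRCm38, with which it shares 98.1% of its 31-base subsequences. The first 60 bases of each are shown because a method that assigns reads by short subsequences can tell them apart only near their ends. Capitals mark the single substitution over the 345 bases compared, T3C, with positions counted from 1 at the first base of *mt-Nd3*, which also has 3 more bases at its end.
mt-Nd3: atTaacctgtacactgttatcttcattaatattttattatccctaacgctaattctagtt
Gm28438: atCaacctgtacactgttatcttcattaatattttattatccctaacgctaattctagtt
Values of *Gm28438* were not analysed here, and the division of reads between both loci was not tested, so the level of *mt-Nd3* alone is uncertain. The same holds in degree for *mt-Co2* (100% of its subsequences shared), *mt-Co3* (99.9%), *mt-Atp6* (99.5%), *mt-Nd4l* (98.9%), *mt-Co1* (63.9%) and *mt-Nd4* (62.8%), whose log2 fold changes of -0.33 to -0.17 were like those of the genes with little sharing. Among the latter, *mt-Nd1* shared 0%, *mt-Cytb* 6.55%, *mt-Nd6* 7.36% and *mt-Atp8* 7.47%.

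The other 12 mitochondria-encoded genes formed a narrow band. Their averaged log2 fold changes ran from -0.36 for *mt-Cytb* (standard error 0.07) to -0.17 for *mt-Co1* (standard error 0.09) on the deposited scale, with all 12 standing between -0.04 and 0.16 under equal totals over nuclear genes. *mt-Nd1* (-0.18, adjusted p = 0.084) and *mt-Co1* (adjusted p = 0.191) were not called. *mt-Nd2* was between 153950 and 191560 in controls (median 175301) and between 128618 and 150420 in the livers labelled MED13-LKO (median 136184), without overlap. *mt-Nd4* also did not overlap, at 173651 to 216147 against 146597 to 172686. For *mt-Nd2* the log2 fold change was -0.34 ± 0.07 (adjusted p = 0.0048) and for *mt-Nd4* -0.33 ± 0.07 (adjusted p = 0.0055). *mt-Nd6*, the one protein gene on the other strand, differed by -0.33 ± 0.06, within the band of the rest. *mt-Atp8* and *mt-Atp6*, which overlap on one transcript, differed by -0.31 and -0.32. Reads from such overlaps, which *mt-Nd4l* and *mt-Nd4* and the ends of *mt-Nd5* and *mt-Nd6* also have, cannot be assigned with certainty.

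**Figure D3:**
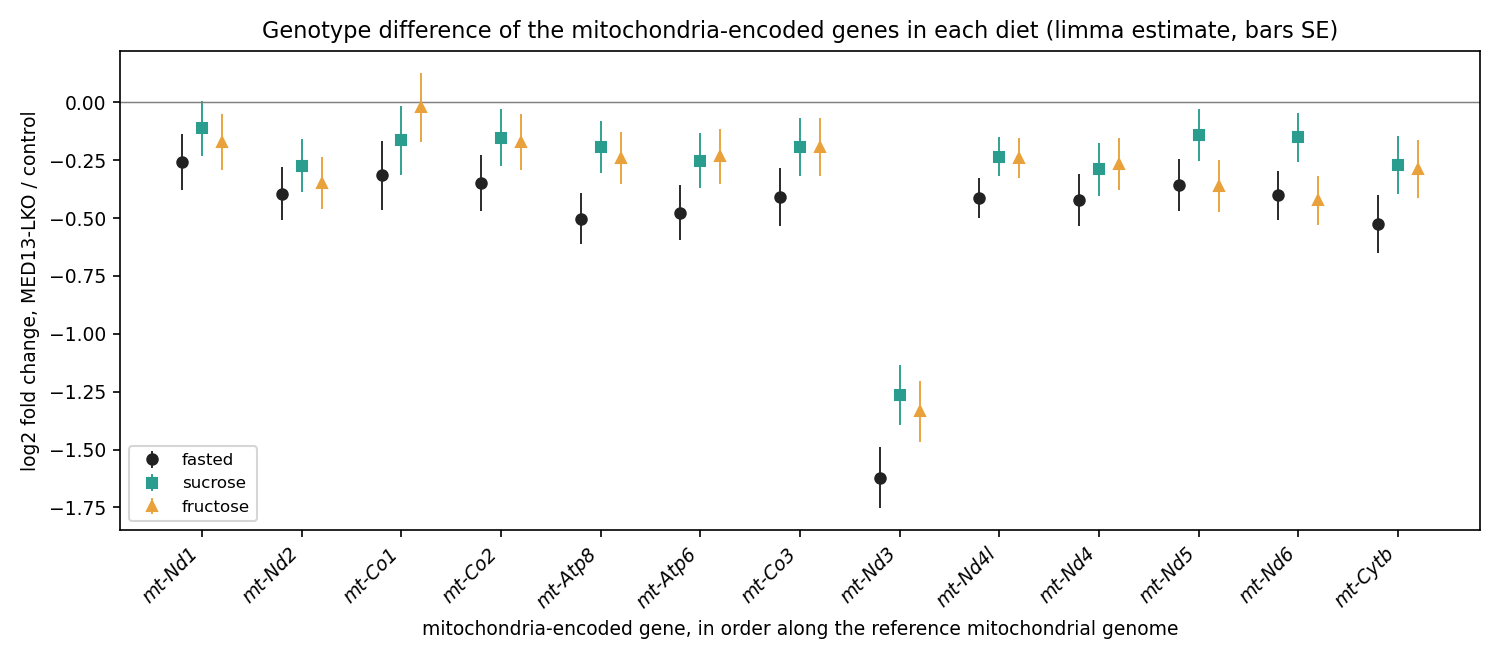
Points are the limma log2 fold changes, livers labelled MED13-LKO against controls, of the 13 mitochondria-encoded genes in order along the mitochondrial genome, with standard errors as bars, for fasted (black circles), sucrose-fed (green squares) and fructose-fed (orange triangles) mice. The medians were -0.41, -0.19 and -0.24 on the deposited scale and -0.07, 0.10 and 0.09 with equal totals over nuclear genes, and *mt-Nd3* stood apart in each diet.

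*Cox6b2*, the testis isoform of the complex IV subunit that *Cox6b1* encodes elsewhere, was the member with the largest difference. It lies at chr7:4751792-4753094 on the minus strand of GRCm38 and holds no 31-base subsequence that occurs in another gene. Its normalized counts were 1.8 and 5.7 in fasted, 5.1 and 2.1 in sucrose-fed and 1.0 and 2.0 in fructose-fed controls. In the livers labelled MED13-LKO they were 402 and 475 in fasted, 201 and 171 in sucrose-fed and 356 and 274 in fructose-fed mice. Every liver labelled MED13-LKO was above every control, with the lowest of them 30.0-fold above the highest control. Because the gene passed the filter only through the livers in which it is high, its call is no evidence beyond these values. The averaged difference of 6.36 on the log2(normalized count + 1) scale depends on the pseudocount, since the controls lie near it. Among the livers labelled MED13-LKO the level was highest in fasted and lowest in sucrose-fed mice, and the pairs did not overlap. Neither refeeding response of the gene was called in these livers. *Cox6b1* was between 2724 and 3260 in controls and between 2843 and 3002 in the livers labelled MED13-LKO (-0.08 ± 0.05, adjusted p = 0.225). *Cox6b2* thus made up 0.0313% to 0.175% of the *Cox6b1* and *Cox6b2* sum in controls and 5.55% to 14.3% in the livers labelled MED13-LKO.

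Of the annotated genes within 50000 bases of *Cox6b2* that are in the table, *Kmt5c*, a histone methyltransferase gene beside it, was called higher (0.67 ± 0.12, adjusted p = 0.0038), and *Rpl28*, which encodes a ribosomal protein, was called lower (-0.50 ± 0.07, adjusted p = 0.00064). *Tmem238* (0.08) and *Ube2s* (-0.04) were not called, and *Brsk1*, *Tmem150b*, *Il11* and *Tmem190* were listed at no more than 6.72 in each library.

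The complex IV subunits with tissue isoforms differed from one another in level. *Cox7a1*, the heart and muscle isoform, was listed at 39.9 and 19.2 in fasted, 16.2 and 19.8 in sucrose-fed and 40.9 and 28.0 in fructose-fed controls. In the livers labelled MED13-LKO it was at 40.4 and 45.1, 35.5 and 57.4, and 51.3 and 45.3 for fasted, sucrose-fed and fructose-fed mice. Within each diet every liver labelled MED13-LKO lay above every control, while pooled over the diets the genotypes overlapped. The averaged log2 fold change was 0.79 ± 0.22 (adjusted p = 0.0274). The common isoform *Cox7a2* did not pass the test, at 1979 to 2437 in controls and 2044 to 2368 in the livers labelled MED13-LKO. *Cox7a2l*, which encodes a supercomplex assembly protein, was called lower on the deposited scale (-0.28 ± 0.05, adjusted p = 0.0020) and was at 0.04 with equal totals over nuclear genes. *Cox6a2*, the other muscle isoform that was tested, was at 9.07 to 26.5 and 9.68 to 23.9 and was not called, and neither was its liver counterpart *Cox6a1* (-0.01 ± 0.04). *Cox8a* was at 2836 to 3344 and 2810 to 3148, whereas *Cox8b* stayed under the filter. Of the genes for the identical ring subunit of complex V, *Atp5g1* (-0.01 ± 0.05) and *Atp5g3* (-0.07 ± 0.04) did not pass the test, and *Atp5g2* was not analysed here.

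**Figure D4:**
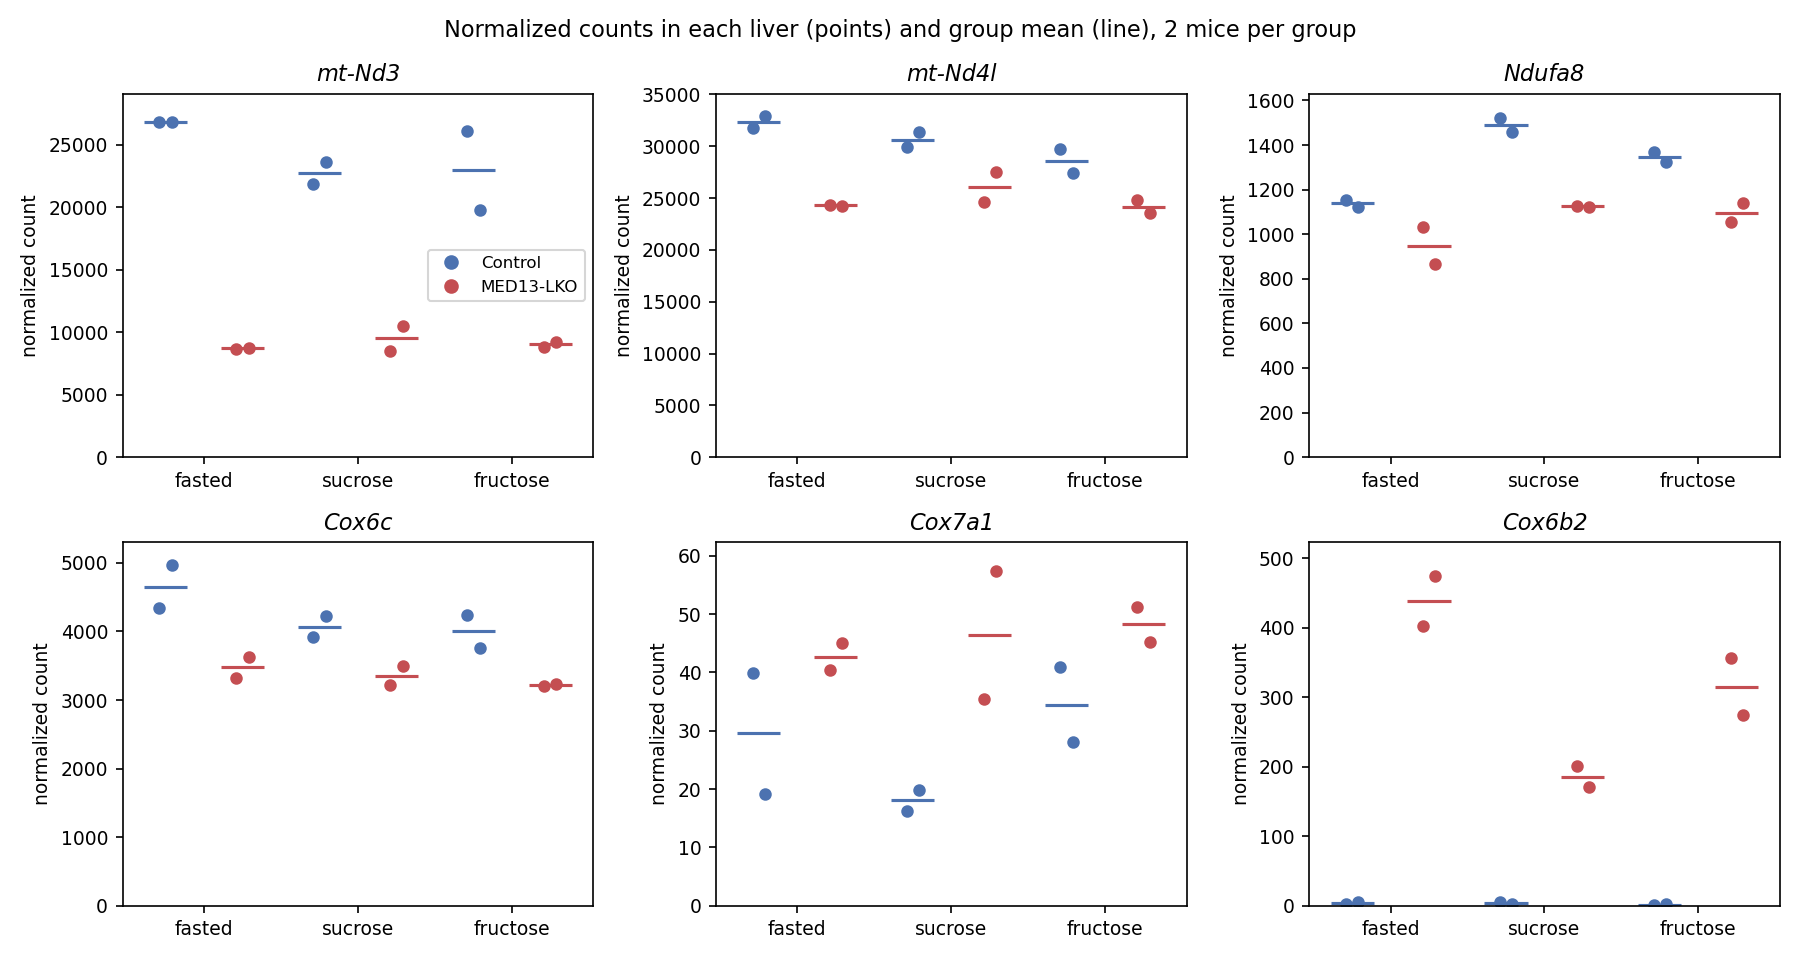
Each point is the normalized count of 1 gene in 1 liver and each line a group mean, with diet on the horizontal axis, controls in blue and livers labelled MED13-LKO in red, and each vertical axis starting at 0. *mt-Nd3* and *Cox6b2* separate in every diet under every scaling, whereas the separations of *mt-Nd4l*, *Ndufa8* and *Cox6c* within each diet are those of the deposited scale. On that scale *Cox7a1* also separates within each diet. Pooled over the diets, the genotypes overlap for *mt-Nd4l*, *Ndufa8* and *Cox7a1* and not for *Cox6c*.

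Among the other nuclear members, *Cox6c* of complex IV differed most downward, at 3761 to 4964 in controls (median 4230) and 3202 to 3632 in the livers labelled MED13-LKO (median 3281). The groups did not overlap, and the log2 fold change was -0.34 ± 0.06 (adjusted p = 0.0019). Next were complex I accessory subunits. *Ndufa8* was at -0.32 ± 0.05 (adjusted p = 0.0021), *Ndufa6* at -0.29 ± 0.04 (adjusted p = 0.00073), *Ndufb10* at -0.28 ± 0.05 (adjusted p = 0.0046) and *Ndufa3* at -0.25 ± 0.05 (adjusted p = 0.0037). *Ndufa6*, an accessory subunit of the matrix arm, was between 2326 and 2965 in controls and between 1986 and 2203 in the livers labelled MED13-LKO. *Ndufb10* was between 1575 and 1801 and between 1265 and 1468, and *Ndufa3* was between 1192 and 1440 and between 1041 and 1151, so neither gene overlapped between genotypes. In all, 12 of the 91 members lay lower on the deposited scale in each liver labelled MED13-LKO than in each control, 9 nuclear and 3 mitochondria-encoded, and 1 lay higher, against 8.85% of all tested genes in either direction and 4.93% in the lower one. The same share was not counted for the other abundant genes. With equal totals over nuclear genes the log2 fold changes were -0.01 for *Cox6c*, -0.0006 for *Ndufa8*, 0.03 for *Ndufa6*, 0.04 for *Ndufb10* and 0.08 for *Ndufa3*. Of the 23 nuclear members called lower, 12 share 10% or more of their 31-base subsequences with another gene, and 11 share less. *Cox6c* shares 11.9%, *Ndufs6* 15.1%, *Ndufb6* 34.4% and *Atp5o* 49.6%, so their levels are less certain than those of *Ndufa8* and *Ndufa3*, which share 0%, or *Ndufa6* (0.0540%). *Ndufb4* shares 19.1% with a tested processed pseudogene, which was listed at a higher mean (782 against 571 normalized counts). The level of *Ndufb4* is therefore uncertain too.

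The calls within single diets were fewer, and each of these comparisons sets 2 livers against 2. In fasted mice 8.98% of all genes were called in either direction and 4.86% lower. Of the other genes with a mean of at least 1000 normalized counts, 14.4% were called lower. Beside these shares, 16 members were called, 15 lower (16.5%) and 1 higher. These were 7 mitochondria-encoded genes, led by *mt-Nd3*, *mt-Cytb* (-0.53) and *mt-Atp8* (-0.50), together with *Ndufa5* (-0.42), *Cox6c* (-0.42), *Ndufa6* (-0.40), *Atp5k* (-0.39), *Ndufs6* (-0.36), *Ndufa3* (-0.35), *Cox7a2l* (-0.30) and *Sdhd* (-0.30), and *Cox6b2* in the other direction. Without any 1 of the 4 fasted libraries, 2 to 4 members were called, and without either fructose-fed control 24 were. With sucrose 3 members were called, *mt-Nd3*, *Ndufa8* (-0.40, adjusted p = 0.0333) and *Cox6b2*, against 6.03% of all genes. With fructose 3 were called, *mt-Nd3*, *mt-Nd6* (-0.42, adjusted p = 0.0397) and *Cox6b2*, against 7.69%. With equal totals over nuclear genes the directions turned, with medians in fasted mice of 0.18 for nuclear and -0.07 for mitochondria-encoded members. Called higher were then 20 members in fasted mice against 31.1% of all genes, 35 with sucrose against 18.3% and 39 with fructose against 28.7%, and 1 was called lower in each.

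Refeeding of control mice shows how these genes differ after chow with sugar water, without the deletion. No group here had chow with plain water, so the part of the sugar cannot be told apart from that of the chow. The paper's methods also have fasted mice killed at an earlier hour than fed mice. Responses named for a sugar are therefore those to the whole refeeding. With sucrose, 82 of the 91 members had a negative estimate against fasting, with a median of -0.13 for nuclear and -0.15 for mitochondria-encoded members and -0.02 for all genes. Only *Ndufa8* was called, against 8.57% of all genes. It rose from 1154 and 1123 fasted to 1521 and 1458 with sucrose (log2 fold change 0.39 ± 0.09, adjusted p = 0.0323), and was 1370 and 1325 with fructose (0.24, adjusted p = 0.155). *Ndufa8*, which encodes an accessory subunit of complex I on the side of the intermembrane space, was not called without either fasted control, the first sucrose-fed control or either sucrose-fed liver labelled MED13-LKO. In the livers labelled MED13-LKO it was 1032 and 865 in fasted, 1128 and 1124 in sucrose-fed and 1057 and 1138 in fructose-fed mice (0.25 and 0.21, neither called), and the sucrose response did not differ detectably between genotypes (-0.13 ± 0.13, adjusted p = 0.827).

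With fructose, 82 of the 91 members again had a negative estimate in controls, with medians of -0.16 for nuclear and -0.23 for mitochondria-encoded members and -0.01 for all genes. Both responses use the same fasted controls, so they are not independent. Called lower were 3 members, against 5.6% of all genes called in either direction and 2.81% lower. *Atp5s*, which encodes a coupling factor of complex V outside the core enzyme, fell from 97.2 and 102 to 35.2 and 41.6 (-1.36 ± 0.29, adjusted p = 0.0294). *Ndufa7* fell from 1474 and 1560 to 1214 and 1257 (-0.30 ± 0.07, adjusted p = 0.0472). *Ndufa6* fell from 2807 and 2965 to 2418 and 2326 (-0.28 ± 0.07, adjusted p = 0.0442). Both *Ndufa* calls passed narrowly, and without either fasted or the first fructose-fed control no member was called, and without any 1 of the 6 livers labelled MED13-LKO 1 member was. Equal totals over nuclear genes moved the all-gene median by 0.13 with sucrose and 0.11 with fructose, and the nuclear medians to -0.01 and -0.05 and the mitochondria-encoded ones to -0.02 and -0.12. The shifted all-gene medians were 0.11 and 0.10. Members lay below them as before, which such a scaling could not change.

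**Figure D5:**
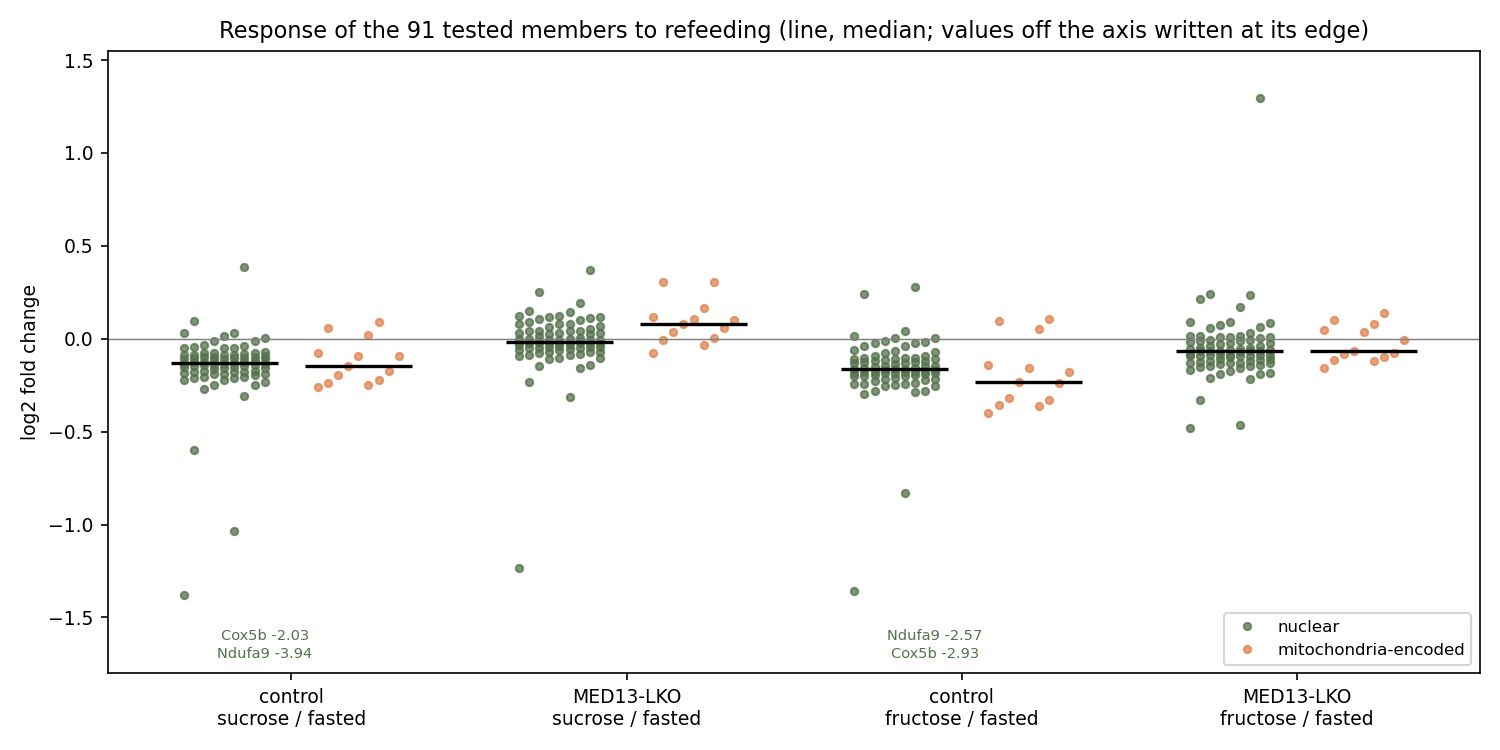
Each point is the limma log2 fold change of 1 tested gene against fasting (green nuclear, orange mitochondria-encoded) for both sugars in controls and in livers labelled MED13-LKO, and black lines are medians. In controls the medians lie between -0.13 and -0.23 on the deposited scale and between -0.01 and -0.12 with equal totals over nuclear genes, and in livers labelled MED13-LKO they lie between -0.07 and 0.08 on the deposited scale and between 0.04 and 0.16 with equal totals.

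In the mice labelled MED13-LKO no member was called for either sugar by limma, against 5.71% of all genes with sucrose and 6.53% with fructose, and 5 members had an unadjusted p under 0.05 for each. The medians were -0.02 for nuclear and 0.08 for mitochondria-encoded members with sucrose, and -0.07 and -0.06 with fructose. With equal totals over nuclear genes they were 0.07 and 0.16 with sucrose and 0.04 and 0.05 with fructose, so that 3 of the 4 turned from negative to positive. *mt-Nd6* (0.31 ± 0.11) and *mt-Nd5* (0.31 ± 0.11), which lie next to each other on opposite strands, had the largest mitochondria-encoded estimates with sucrose, at adjusted p = 0.128 and 0.150. The test of the difference in response between genotypes called no member for sucrose or fructose, against 0.146% and 0.0243% of all genes, with 3 and 4 members at an unadjusted p under 0.05. For sucrose the estimate was positive for all 13 mitochondria-encoded genes, from 0.12 to 0.36 with a median of 0.22, and with equal totals over nuclear genes the median was 0.17. The smallest p-values for sucrose were those of *Cox6a2* (1.75 ± 0.56, adjusted p = 0.424) and *Atp5k* (0.33 ± 0.11, adjusted p = 0.452). For fructose they were those of *Atp5k* (0.31 ± 0.11) and *Ndufa7* (0.28 ± 0.10), both at adjusted p = 0.456. Fructose against sucrose, averaged over genotypes, gave no called member either, against 0.0404% of all genes, with 3 at an unadjusted p under 0.05.

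Genes that work beside the subunits were counted in the averaged genotype comparison on the deposited scale, in which 13.2% of all genes and 35.6% of the other abundant genes were called lower. Of 43 tested assembly factors 5 were called lower (11.6%, no more than over all genes), among them the complex IV factors *Coa6* (-0.50 ± 0.10), *Coa5* (-0.22 ± 0.05) and *Cox19* (-0.32 ± 0.07). Of 28 genes for mitochondrial DNA transcription and RNA upkeep 3 were called lower (10.7%). These were *Hsd17b10*, which encodes a subunit of mitochondrial RNase P (-0.82 ± 0.06, adjusted p = 1.63e-05), *Lrpprc*, which stabilizes mitochondrial mRNAs (-0.25 ± 0.04, adjusted p = 0.0016), and the transcription factor gene *Tfb2m* (-0.29 ± 0.06, adjusted p = 0.0046). Of 10 nuclear regulators of respiratory genes, *Esrra* (0.38 ± 0.07) and the coactivator gene *Ppargc1a* (0.47 ± 0.13) were called higher and *Pprc1* (-0.45 ± 0.13) lower. Of 13 tricarboxylic acid cycle genes *Fh1* (-0.54) and *Cs* (-0.27) were called lower and *Ogdh* (0.21) higher, and of 10 outer membrane and carrier genes *Tomm70a* (-0.27), *Vdac1* (-0.26) and *Tomm20* (-0.22) were called lower. None of the 6 other respiratory chain genes was called by limma, among them *Cycs* (-0.14), *Etfa* (0.11) and *Etfdh* (0.07).

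Both ribosomes were also counted, since one translates the nuclear and the other the mitochondrial messages. Of 75 mitochondrial ribosomal protein genes 15 were called lower (20%) and 1 higher (median -0.11), between the shares of all genes and of abundant ones, led by *Mrps10* (-1.47 ± 0.11), *Mrpl9* (-0.39 ± 0.05) and *Mrpl15* (-0.34 ± 0.05). Of 74 cytosolic ribosomal protein genes 67 were called lower (90.5%, median -0.34), and *Rps26* (-5.68), *Rpl34* (-3.42) and *Rpl30* (-1.57) had the smallest adjusted p-values. The lists' medians move up by the all-gene shift of 0.32 with equal totals over nuclear genes.

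Promoters of the nuclear members were searched in the RefSeq sequences (GRCm38.p6) from 250 bases before to 50 after the start, which were found for 64 of the 95 members as 69 windows. The motif of NRF1, a known activator of respiratory genes (core GCGCANGCG, either strand), was in 29.0% of these windows and in 6.25% of all 32851 windows of this length. Those of ERR (TCAAGGTCA) and YY1 (AAGATGGCG) were in 2.90% and 10.1% against 0.423% and 1.40%, and that of ETS factors (CCGGAAGT) in 7.25% against 3.89%. A match is a description of these letters and not of binding. Windows of *Ndufa8* (chr2:36049289-36049588, minus strand) and *Ndufs6* (chr13:73328433-73328732, minus strand), both called lower on the deposited scale, and of *Cox6b2* (chr7:4753045-4753344, minus strand) are shown because they contrast members with and without these motifs. Capitals mark NRF1 matches and, in the last bases of *Ndufs6*, the YY1 match, and none of the 4 motifs is in the *Cox6b2* window.
Ndufa8: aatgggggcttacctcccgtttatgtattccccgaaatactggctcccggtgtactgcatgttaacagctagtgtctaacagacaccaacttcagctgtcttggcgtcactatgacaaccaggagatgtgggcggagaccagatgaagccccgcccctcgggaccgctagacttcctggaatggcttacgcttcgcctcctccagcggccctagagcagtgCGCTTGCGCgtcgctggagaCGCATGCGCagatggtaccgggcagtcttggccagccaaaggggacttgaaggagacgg
Ndufs6: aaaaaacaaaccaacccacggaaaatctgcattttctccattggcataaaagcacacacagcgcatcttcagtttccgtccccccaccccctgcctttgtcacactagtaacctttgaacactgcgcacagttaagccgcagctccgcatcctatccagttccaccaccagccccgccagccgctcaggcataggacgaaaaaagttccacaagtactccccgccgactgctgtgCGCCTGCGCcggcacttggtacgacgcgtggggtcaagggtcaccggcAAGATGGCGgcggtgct
Cox6b2: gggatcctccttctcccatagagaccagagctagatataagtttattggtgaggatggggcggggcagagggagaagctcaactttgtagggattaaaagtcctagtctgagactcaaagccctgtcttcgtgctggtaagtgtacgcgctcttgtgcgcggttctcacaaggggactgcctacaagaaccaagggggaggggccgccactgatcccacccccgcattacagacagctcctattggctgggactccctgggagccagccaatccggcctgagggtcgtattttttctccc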

How the data were processed

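Liver RNA-seq libraries from 12 mice, 2 in each of 6 groups, were grouped by the sample titles. The authors used Trim Galore 0.6.5 for trimming, estimated transcript counts with kallisto 0.46.0 and normalized them with DESeq2 1.24.0, per the submitters' processing notes and the paper, and the transcript reference is not given in the sources used here. The signal values they deposited are normalized counts for 16346 genes. Their low values did not give whole reads for the table as a whole, so no count test was run.

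Log2(normalized count + 1) was fitted for the 12366 genes whose mean reached 10, with limma 3.58.1 (R 4.3.3), with 6 group means, empirical Bayes moderation with a mean trend and Benjamini-Hochberg adjustment over all genes tested. This limma fit gave each adjusted p. It was also run on simulated data that held no shift in totals between genotypes, so that run cannot speak to the scaling. The labels do not say how the mice of a group were bred or handled, so p-values measure the spread between these mice. Of the identifiers, 16212 were matched to GENCODE M21 (GRCm38), which gave positions, lengths and the share of 31-base subsequences held by other genes. Python 3.11.15, pandas 2.3.3 and matplotlib 3.10.9 were used.

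The members and lists were chosen with earlier results of these data known. Named were each mitochondria-encoded member, up to 10 members in each direction called in the averaged genotype comparison, up to 4 in each direction (or the 3 smallest p-values) in other comparisons, members under the filter, tissue isoforms, called members sharing 10% or more of their sequence, complex II, and 3 genes of each further list. Alternatives were pseudocounts of 0.1 and 10, no filter, equal 75th percentiles, equal totals over nuclear genes, sums over genes sharing sequence, the replicate block, fits of the compared groups, and leaving out each library. One member is not reported here by name.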

Additional observations from a re-analysis of the deposited data

Results flagged for a closer look

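Only the members named by the rule given above were searched for opposite movement. In some, both fed mice lay on one side of both fasted mice in one genotype and on the other side in the other. The share of all genes that do so was not counted. In each case the test of the difference between the responses did not call the gene in limma, so the differences are values only, given as the response in mice labelled MED13-LKO minus that in controls on the log2 scale. For sucrose they were 0.3324 for *Atp5k*, 1.7498 for *Cox6a2*, 0.2352 for *Cox7a2*, 0.3064 for *Ndufb4*, -0.1708 for *Sdha* and 0.1773 for *mt-Nd4l*. For fructose they were 0.309 for *Atp5k*, 4.2315 for *Cox5b*, 0.1772 for *mt-Co2* and 0.2866 for *mt-Nd3*. *Cox5b* and *Cox6a2* rest on normalized counts of at most 31.3 and 26.5, and *Cox5b*, listed at 0 in 1 fructose-fed control, may hold failed estimates, so its value is uncertain.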

How the results depend on the processing

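The scaling between libraries decided most directions between genotypes. With equal totals over nuclear genes, the members called were 61 averaged over the diets, 21 in fasted mice, 36 with sucrose and 40 with fructose, of which 60, 20, 35 and 39 were higher. Of all calls over all genes, 93.1% to 94.8% were higher there, and the medians between genotypes became 0.24 for nuclear and 0.011 for mitochondria-encoded members. The averaged log2 fold changes that turned positive were *Atp5e* 0.17, *Atp5g1* 0.31, *Atp5g3* 0.25, *Atp5h* 0.15, *Atp5k* 0.15, *Atp5o* 0.16, *Cox4i1* 0.17, *Cox6a1* 0.31, *Cox6b1* 0.24, *Cox7a2l* 0.040, *Cox8a* 0.30, *Ndufa1* 0.098, *Ndufa10* 0.15, *Ndufa13* 0.11, *Ndufa3* 0.076, *Ndufa5* 0.10, *Ndufa6* 0.034, *Ndufa7* 0.26, *Ndufb10* 0.042, *Ndufb2* 0.14, *Ndufb4* 0.13, *Ndufb6* 0.088, *Ndufb9* 0.20, *Ndufs5* 0.12, *Ndufs6* 0.092, *Sdhb* 0.32, *Sdhc* 0.27, *Sdhd* 0.11, *Uqcrq* 0.17, *mt-Atp6* 0.0013, *mt-Atp8* 0.011, *mt-Co2* 0.099, *mt-Co3* 0.058, *mt-Nd4l* 0.026 and *mt-Nd5* 0.037, and in fasted mice *Cox7a2l* turned to 0.035 and *Sdhd* to 0.04. *mt-Nd3*, *Cox6b2* and *Cox7a1* kept their directions and calls there. Under the same scaling the feeding medians in controls moved to -0.0070 (nuclear) and -0.023 (mitochondria-encoded) with sucrose and to -0.050 and -0.12 with fructose, 1 member was called with fructose in controls, and 2 with sucrose in mice labelled MED13-LKO, where 3 of 4 feeding medians turned positive (0.066 for nuclear members with sucrose, and 0.044 and 0.047 for nuclear and mitochondria-encoded members with fructose). The mitochondria-encoded share, 0.37 percentage points higher in livers labelled MED13-LKO, was 1.06 points lower there (a difference of -1.06) when the 100 other most abundant genes were left out of the total.

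In fasted mice 9 members were called without the filter, and 10 with the replicate block. With fructose in controls 1 was called without the filter, 1 with equal 75th percentiles and 1 with the replicate block, and 0 when the compared groups alone were fitted. A pseudocount of 10 gave 2 calls with sucrose in controls and 1 in mice labelled MED13-LKO, where fitting the compared groups alone also gave 1. Leaving out 1 library at a time gave 24 to 36 calls averaged over the diets, 2 to 24 in fasted mice, 2 to 3 between genotypes with sucrose, 2 to 4 with fructose, 0 to 1 with sucrose and 0 to 2 with fructose in controls, 0 to 1 for the difference in the sucrose response and 0 to 1 for fructose against sucrose. The median of the mitochondria-encoded members with fructose in controls then ran from -0.31 to -0.12, the latter without the second fructose-fed control, without which the nuclear median was -0.11. The cause of these changes was not tested.

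The replicate numbers were not used as pairs. Deviations of same-numbered mice from their group means correlated between -0.14 and 0.078 over the pairs of groups, and no source says that a number marks shared handling. With the replicate block 30 members were called averaged over the diets, 3 with sucrose and 2 with fructose between genotypes, and the medians did not change. With the numbers of the fructose-fed mice labelled MED13-LKO crossed, an alternative chosen after seeing the data, 3 were called with fructose.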
